A study of Rattus norvegicus with 6 samples.

Results

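The enzymes of the citrate cycle, with the pyruvate dehydrogenase complex that feeds it, were followed in INS-1E, a beta-cell line derived from a rat insulinoma, after 24 hours with uric acid. The members were the rows of the deposited table whose KEGG annotation holds entry 00020 (citrate cycle): 28 genes of 19289 features. RNA-seq of polyadenylated RNA was made from 3 untreated libraries and 3 libraries of cells treated with uric acid, all from the same line. The labels give no genetic change, no vehicle and no uric acid concentration, and leave unsaid if each replicate was a culture of its own, so p-values measure the spread between these libraries, which may be technical. The line stands for a tumour-derived beta cell. All 12 beta-cell markers looked for had a mean of at least 1 FPKM, and their summed level was 69170 to 83150 FPKM untreated and 67830 to 80350 FPKM with uric acid. Of the markers of other cell types, the ductal ones summed to 188.1 to 192.4 FPKM untreated and 170.6 to 183.0 FPKM with uric acid, nearly all of it Krt7, while Krt19 was at most 0.0438 FPKM. The alpha-cell gene Gcg was at 5.46 to 10.2 and 7.47 to 10.6 FPKM. Summed fibroblast or stellate, acinar, immune and endothelial markers were at most 3.39, 1.81, 0.654 and 0.38 FPKM in any library. These sums rest on the markers found among the features, 6 of 7, 2 of 8, 3 of 5 and 3 of 4. Of the ductal, alpha-cell and delta-cell markers, 3 of 4, 1 of 4 and 0 of 2 were found, so delta cells could not be looked at. The part of other cell types in the results was not tested.

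The citrate cycle burns the acetyl group made from pyruvate by pyruvate dehydrogenase and hands its electrons to the respiratory chain. In beta cells the cycle couples glucose to insulin release: glucose carbon enters it both as acetyl-CoA and, through pyruvate carboxylase, as oxaloacetate, and intermediates leave it again as citrate, malate and 2-oxoglutarate. Anaplerotic enzymes add carbon to the cycle and cataplerotic enzymes take it out.

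The citrate cycle messages differed little between the groups. Of the 28 members, all of which had a mean of at least 1 FPKM (fragments scaled to transcript length and library size) and so were tested, 1 fell and none rose at an adjusted p under 0.05 (edgeR quasi-likelihood test, Benjamini-Hochberg over 12460 features). Over all tested features 7.98% passed, 4.99% higher and 2.99% lower, so the members' share of 3.57% was not above that background. The gene that fell was Dlst, the core transferase of the 2-oxoglutarate dehydrogenase complex. At an unadjusted p under 0.05 the members counted 1 higher and 6 lower, 25% of them, against 25.7% of all features (13.7% higher and 12% lower). DESeq2 and limma likewise called 1 member lower and 0 higher. Over all features DESeq2 called 14.7% (8.12% higher and 6.62% lower) and limma 6.59% (4.28% higher and 2.31% lower). The uric acid and untreated libraries did not overlap for 9 members, 3 higher and 6 lower, which is 32.1% against 31% of all features (16.8% higher and 14.2% lower).

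The fitted log2 fold changes of the members, uric acid minus untreated, ran from -0.29 for Dlst to 0.17 for Ogdhl, with a median of -0.04 against 0.00 over all features. The median absolute log2 fold change was 0.082 among the members and 0.158 among all tested features. The members were well expressed, with a median level of 37.3 FPKM against 10.4, and their median standard error was 0.0757 against 0.113. For all 28 members the 95% interval of the fold change lay within 1.5-fold either way. The lowest interval bound of any member was 0.711-fold and the highest 1.24-fold.

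**Figure D1:**
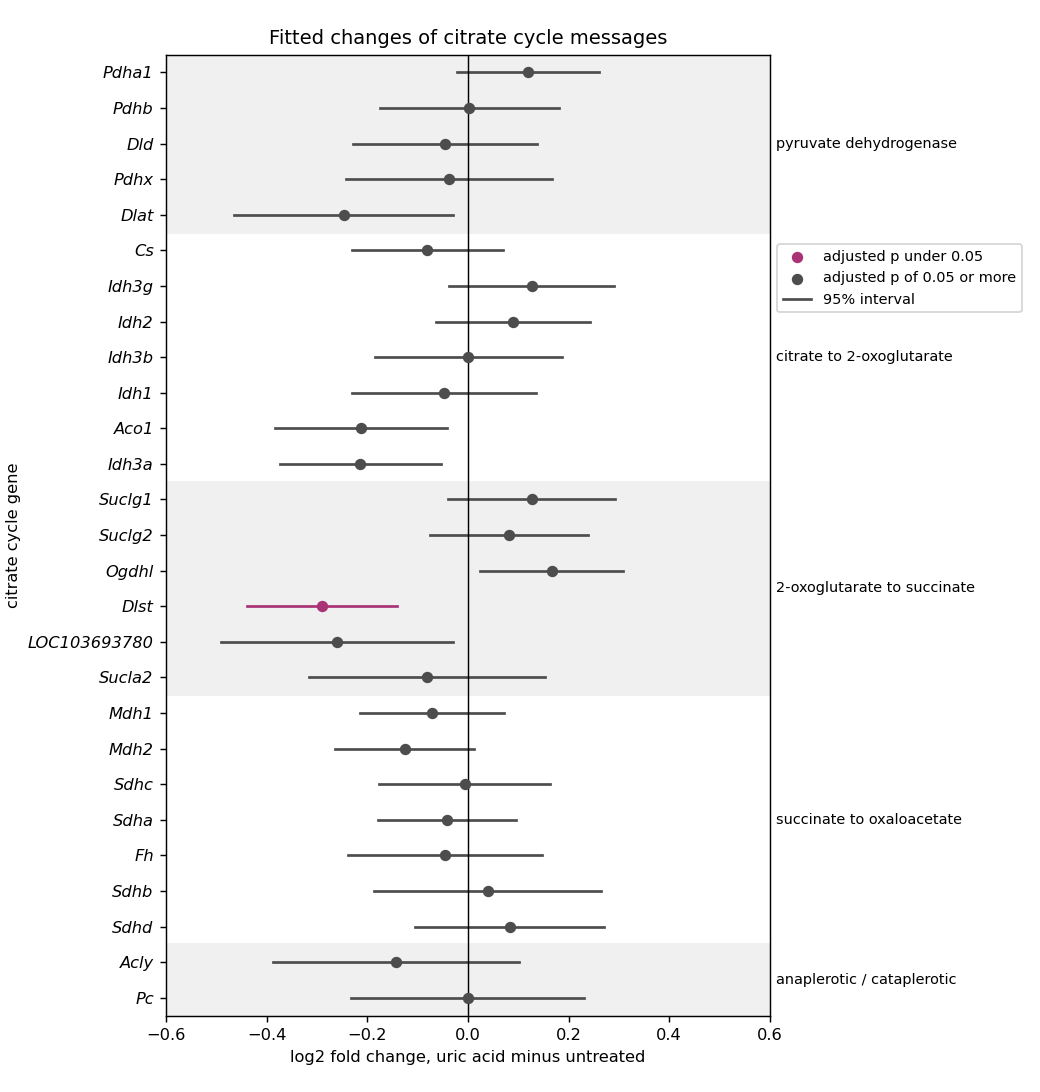
Fitted log2 fold change of 27 of the citrate cycle messages (x axis, uric acid minus untreated; points) with its 95% interval (lines), grouped by the step the enzyme serves and coloured by whether the adjusted p is under 0.05. Dlst at -0.29 is the 1 coloured member, and no interval reaches beyond -0.49 or 0.31.

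Levels per unit of transcript length spanned a wide range. Acly, which splits exported citrate into acetyl-CoA, was the most abundant at a mean of 434 FPKM over the 6 libraries. The malate dehydrogenases Mdh1 of the cytosol and Mdh2 of mitochondria followed at 231 and 206 FPKM, then citrate synthase, Cs, at 107 FPKM. The lowest levels were those of Dlat at 9.13, Pdhx at 9.96 and Sucla2 at 12.2 FPKM. Estimated counts of the members were between 1004 and 144045 per library.

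**Figure D2:**
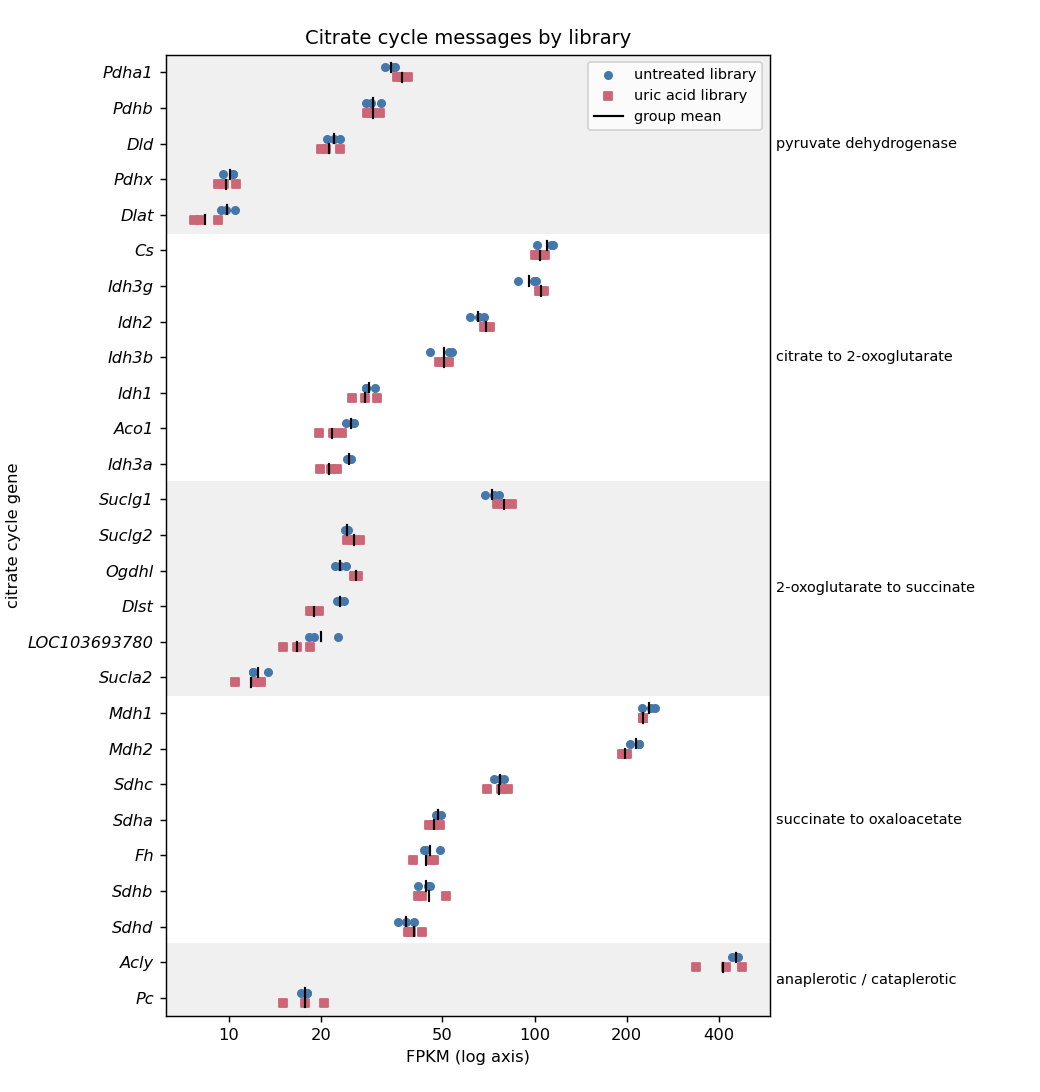
FPKM of 27 of the citrate cycle messages in each of the 6 libraries (log x axis; circles untreated, squares uric acid, black lines group means), grouped by step. The order of the genes spans from Dlat at 9.13 to Acly at 434 FPKM, and the distance between groups is small beside the distance between genes.

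Pyruvate enters through the pyruvate dehydrogenase complex, built from a decarboxylase (Pdha1 and Pdhb), a transferase core (Dlat), the lipoamide dehydrogenase Dld and the binding protein Pdhx that holds Dld to the core. None of the 5 members passed the threshold. Dlat stood at 9.78, 10.5 and 9.47 FPKM in untreated libraries 1, 2 and 3 and at 9.23, 7.7 and 8.14 FPKM in uric acid libraries 1, 2 and 3. The 3 uric acid values lay below the 3 untreated values, and the log2 fold change was -0.25 ± 0.10 (standard error; edgeR adjusted p = 0.15). Pdha1, the catalytic subunit, stood at 34.4, 35.1 and 32.4 FPKM untreated and 38.5, 36.7 and 35.6 FPKM with uric acid. Here the uric acid libraries were the higher ones, without overlap (0.12 ± 0.06, edgeR adjusted p = 0.268). Pdhb, Dld and Pdhx had overlapping groups and log2 fold changes of 0.00, -0.05 and -0.04.

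The ratio of Pdha1 to Dlat within a library was 3.52, 3.35 and 3.42 untreated and 4.17, 4.77 and 4.38 with uric acid. The groups did not overlap, with a 1.29-fold higher mean ratio (exact two-sided permutation test, p = 0.1, the smallest that 3 libraries against 3 allow, and 0.225 adjusted over the 9 ratios computed). This pair was chosen after its values were seen. The groups of Pdha1 and Dlat already lay apart in opposite directions. The separation of the ratio and its p were therefore fixed by the choice and add no support.

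From citrate to 2-oxoglutarate, none of the 8 members passed. Idh3a, Idh3b and Idh3g encode the subunits of the NAD-dependent isocitrate dehydrogenase, the step that calcium and ADP speed up. Idh3a, the catalytic subunit, stood at 24.8, 25.2 and 24.3 FPKM untreated and 22.6, 21.7 and 19.9 FPKM with uric acid. All uric acid values were below all untreated ones, with a log2 fold change of -0.21 ± 0.07 (edgeR adjusted p = 0.101; 0.0562 with DESeq2). Idh3g, a regulatory subunit, stood at 88.2, 99.2 and 101 FPKM untreated and at 104, 107 and 104 FPKM with uric acid, higher without overlap (0.13 ± 0.07, edgeR adjusted p = 0.31). Idh3b, the other regulatory subunit, was at 50.6 ± 4.47 and 50.7 ± 1.91 FPKM (mean ± SD, n = 3 per group). The ratio of Idh3g to Idh3a, also chosen after its values were seen, was 3.55, 3.94 and 4.15 untreated and 4.61, 4.95 and 5.22 with uric acid. That ratio was 1.27-fold higher on average and did not overlap (exact permutation p = 0.1, adjusted 0.225). Because the groups of Idh3g and Idh3a already lay apart in opposite directions, this outcome was also fixed by the choice.

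Aco1, an aconitase of the cytosol that turns citrate into isocitrate and doubles as an iron sensor, was lower in every uric acid library than in any untreated one. It stood at 25.7, 25.5 and 24.2 FPKM untreated and 21.9, 19.8 and 23.4 FPKM with uric acid (-0.21 ± 0.08, edgeR adjusted p = 0.12). Uric acid library 3 lay closest to the untreated group. Without it the adjusted p was 0.0572, still above the threshold. Citrate synthase, Cs, which condenses acetyl-CoA with oxaloacetate, was at 110.0 ± 6.92 and 104 ± 4.07 FPKM (mean ± SD, n = 3 per group). The NADP-dependent isocitrate dehydrogenases Idh1 of the cytosol and Idh2 of mitochondria had overlapping groups, with log2 fold changes of -0.05 and 0.09. Idh2 overlaps Zfp710 on the other strand, and whether counting used strand is not stated in the labels.

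From 2-oxoglutarate to succinate lay the one call. Dlst encodes the dihydrolipoyl succinyltransferase that forms the core of the 2-oxoglutarate dehydrogenase complex and carries its lipoyl groups. It stood at 22.7, 23.8 and 23.1 FPKM in untreated libraries 1, 2 and 3, and at 19.7, 18.4 and 18.7 FPKM in uric acid libraries 1, 2 and 3. The groups were well separated beside their spread, 23.2 ± 0.541 and 19.0 ± 0.689 FPKM (mean ± SD, n = 3). Dlst fell by 18.3% (log2 fold change -0.29 ± 0.07, 95% interval -0.44 to -0.14, edgeR adjusted p = 0.031; 0.0028 with DESeq2 and 0.042 with limma). The call was lost when any 1 of the 6 libraries was left out, with adjusted p from 0.0532 to 0.155. The log2 fold change in those fits stayed between -0.31 and -0.27. They have fewer residual degrees of freedom, and why the call was lost was not tested. The Dlst call was also just lost when features down to any FPKM above 0 were tested (0.0523).

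Dlst (ENSRNOG00000005061) lies on chromosome 6 from 108936664 to 108959803 in the deposited table, whose build of the rat genome the labels do not name. Its promoter is shown because it is the member that passed. The 250 bases before its start, from RefSeq on build GRCr8 (chr6:110489456-110489705, plus strand), are 61.2% G or C. The capitals mark a match to ACCGGAAG, the motif of the ETS factor GABP that is known for nuclear genes of mitochondria, read on the other strand, and it begins 20 bases before the start.
Dlst: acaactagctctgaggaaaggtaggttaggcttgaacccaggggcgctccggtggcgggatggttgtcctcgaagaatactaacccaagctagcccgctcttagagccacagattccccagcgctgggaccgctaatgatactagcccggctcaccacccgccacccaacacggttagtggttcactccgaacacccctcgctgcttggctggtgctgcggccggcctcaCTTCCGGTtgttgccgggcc

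The decarboxylase of the same complex is represented by 2 rows. LOC103693780, described in the table as 2-oxoglutarate dehydrogenase, mitochondrial-like, stood at 22.9, 19.0 and 18.4 FPKM untreated and 16.7, 15.1 and 18.5 FPKM with uric acid. Its groups overlapped, because uric acid library 3 lay above untreated library 3 (-0.26 ± 0.10, edgeR adjusted p = 0.152). Ogdhl, a related decarboxylase (dehydrogenase-like) known from brain, stood at 24.2, 22.3 and 23.1 FPKM untreated and 26.0, 25.8 and 26.5 FPKM with uric acid. All 3 uric acid values were above the untreated ones (0.17 ± 0.06, edgeR adjusted p = 0.14), and this was the highest log2 fold change of any member.

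The ratio of Ogdhl to LOC103693780 was 1.06, 1.17 and 1.26 untreated and 1.55, 1.71 and 1.43 with uric acid. The groups did not overlap, and the mean ratio was 1.34-fold higher, the widest shift of the 9 ratios (exact permutation p = 0.1, adjusted 0.225). LOC103693780 contains LOC103693776 on the same strand, itself at 15.8 FPKM with a log2 fold change of -0.01, so the split of reads between these rows is uncertain. The promoter window of Ogdhl is shown beside that of Dlst because the 2 genes lay at opposite ends of the members. It comes from RefSeq on build GRCr8 (chr16:7584416-7584665, plus strand), and its capitals mark GGGGCGGGG, the GC box.
Ogdhl: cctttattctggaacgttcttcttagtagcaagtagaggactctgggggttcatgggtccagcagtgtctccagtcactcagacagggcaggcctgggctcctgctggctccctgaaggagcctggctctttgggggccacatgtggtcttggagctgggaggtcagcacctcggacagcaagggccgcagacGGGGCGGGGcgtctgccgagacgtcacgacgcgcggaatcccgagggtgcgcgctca

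Succinyl-CoA is turned into succinate by an enzyme with a shared alpha subunit, Suclg1, and either a GTP-forming beta subunit, Suclg2, or an ADP-using one, Sucla2. In beta cells the mitochondrial GTP made by the Suclg2 form has been linked to insulin secretion. None of the 3 passed. Suclg1 was at 72.9 ± 3.94 and 79.6 ± 4.67 FPKM, Suclg2 at 24.3 ± 0.264 and 25.8 ± 1.24 FPKM and Sucla2 at 12.5 ± 0.8 and 11.8 ± 1.18 FPKM (mean ± SD, n = 3 per group). The ratio of Suclg2 to Sucla2 was 2.0, 2.02 and 1.83 untreated and 2.12, 2.11 and 2.32 with uric acid. It was thus higher in each uric acid library, by 1.12-fold on average (exact permutation p = 0.1, adjusted 0.225). The adjustment covers the Idh3g to Idh3a and Pdha1 to Dlat ratios, which were chosen after their values were seen. Their inclusion lowers the adjusted p of the planned Suclg2 to Sucla2 and Ogdhl to LOC103693780 ratios.

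From succinate to oxaloacetate none of the 7 members passed, and their log2 fold changes ran from -0.13 to 0.08. Sdha and Sdhb, the flavin and iron-sulfur subunits of succinate dehydrogenase, and its membrane anchors Sdhc and Sdhd had overlapping groups, with log2 fold changes of -0.04, 0.04, -0.01 and 0.08. Fh, fumarase, was at 45.6 ± 2.92 and 44.2 ± 3.68 FPKM (mean ± SD, n = 3 per group). Mdh2, the mitochondrial malate dehydrogenase, was the 1 of the 7 without overlap, at 204, 220.2 and 220.0 FPKM untreated and 201, 193 and 197 FPKM with uric acid (-0.13 ± 0.06, edgeR adjusted p = 0.234). Mdh1, its cytosolic partner in the malate-aspartate shuttle, was at 224, 239 and 247 against 226, 225 and 226 FPKM, which overlap. The ratio of Mdh1 to Mdh2 was 1.10 ± 0.02 and 1.14 ± 0.0232, also overlapping (exact permutation p = 0.2, adjusted 0.3).

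**Figure D3:**
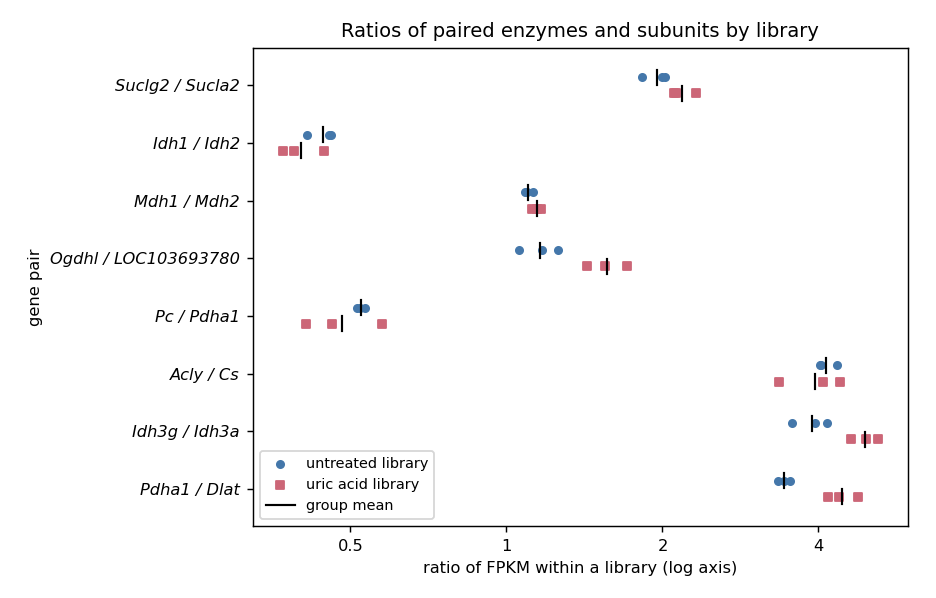
Ratio of FPKM between paired enzymes or subunits within each library (log x axis; circles untreated, squares uric acid, black lines group means). The groups do not overlap for Ogdhl to LOC103693780, Suclg2 to Sucla2, Idh3g to Idh3a and Pdha1 to Dlat, and overlap for the other 4 pairs drawn. Idh3g to Idh3a and Pdha1 to Dlat were chosen after their values were seen, so their separation was fixed by the choice.

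The anaplerotic and cataplerotic members, kept apart, were Pc and Acly. Pc, pyruvate carboxylase, which makes oxaloacetate from pyruvate, stood at 18.0, 18.1 and 17.3 FPKM untreated and 17.8, 15.1 and 20.5 FPKM with uric acid. Its group means were nearly equal, 17.8 in each, while the uric acid libraries were spread over a wider range on both sides of the untreated ones (0.00 ± 0.10, 95% interval -0.23 to 0.23, edgeR adjusted p = 0.996). Acly stood at 462, 459 and 443 FPKM untreated and 423, 337 and 477 FPKM with uric acid. Uric acid library 2 held the lowest and uric acid library 3 the highest value of all 6 (-0.14 ± 0.11, edgeR adjusted p = 0.441). In Pc and Acly alike, uric acid library 2 was lowest and uric acid library 3 highest. Pc contains Lrfn4 on the other strand, at 45.2 FPKM, which had a log2 fold change of 0.07.

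The ratios of these genes to enzymes at the same branch point overlapped between the groups. Pc to Pdha1, the 2 entries for pyruvate, was 0.524 ± 0.00878 untreated and 0.483 ± 0.0844 with uric acid (mean ± SD, n = 3 per group). Acly to Cs, use against synthesis of citrate, was 4.14 ± 0.177 and 3.95 ± 0.533. The ratio of Idh1 to Idh2, cytosolic against mitochondrial form, was 0.442 and 0.401 (exact permutation p = 0.2, adjusted 0.3).

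Pck2, the mitochondrial phosphoenolpyruvate carboxykinase that draws oxaloacetate out of the cycle, carries no KEGG entry in the table and so is no member. Its values are given here because it acts at the same branch point as Pc. It stood at 26.0, 27.0 and 26.8 FPKM untreated and 33.7, 35.3 and 29.1 FPKM with uric acid, higher without overlap. The log2 fold change was 0.30 ± 0.08, which missed the threshold (edgeR adjusted p = 0.0636) but passed with DESeq2 (0.0236), with only features of at least 5 FPKM tested (0.048) and without uric acid library 3 (0.0203). Pck2 is known as a target of the stress factor ATF4. A match to TGATGNAA, the ATF4 composite site, was found in its promoter window on the other strand, beginning 239 bases before the start. This motif was in 2.9% of protein-coding and 3.27% of all promoters, and a role of ATF4 here was not tested. The bases shown are from RefSeq, GRCr8 (chr15:32997603-32997632, plus strand), and capitals mark the match.
Pck2: agccttcaaagTTACATCAgtatccttgca

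Promoter windows of 250 bases were found in RefSeq for 24 of the 28 members by symbol. Their median content of G and C was 60.8%, against 54.8% for 19005 protein-coding genes, and their median number of CG pairs 16 against 9. On both strands, ACCGGAAG (ETS) was found in 4 of the 24, or 16.7%, against 2.64% of protein-coding promoters and 2.18% of all 27457. The 4 are Dlst, shown above, Idh3g, Sdhb and Sdhd, and the 30 bases around the match are given for the others because the motif was their shared feature. Their log2 fold changes went both ways, from -0.29 for Dlst to 0.13 for Idh3g.
Idh3g: gtgctacaggcACCGGAAGgggacgtagga
Sdhb: ttactcgggatACCGGAAGctgccttccac
Sdhd: ccacctcctgcCTTCCGGTtcactcttgag

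These windows lie on GRCr8 at chrX:156675559-156675588 (minus strand) for Idh3g, chr5:158547814-158547843 (plus) for Sdhb and chr8:59850671-59850700 (minus) for Sdhd. Of the other motifs searched on both strands, those found are given with their shares of protein-coding and then of all promoters. CCAAT was in 10 of the 24 (35.5 and 34.3%). TGACNNNGC, the antioxidant response core, was in 5 (10.7 and 10.2%), and GGGGCGGGG in 5 (12.6 and 9.74%). TATAAA was in 1 (12.3 and 13.1%) and the E-box CACGTG in 1 (6.38 and 5.79%). The palindromic site of nuclear respiratory factor 1, TCAAGGTCA, that of estrogen-related receptors, and TGATGNAA were in none of the 24 windows (0.849, 0.368 and 3.27% of all promoters). Some matches of different motifs may share bases, and none was tested for binding.

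Genes that supply or control the cycle were read from 8 lists. They hold 90 genes of the table beside the members, 82 of them tested. Of these 4 rose and 2 fell, or 7.32%, close to the 7.98% of all features. The 4 that rose were in 2 groups: transaminases that yield 2-oxoglutarate, and makers of lipoyl and iron-sulfur groups.

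Of 11 tested genes of glutamate entry, 2 rose and none fell with edgeR, DESeq2 and limma (18.2%). Of all features these called 7.98%, 14.7% and 6.59%. At an unadjusted p under 0.05, 2 were higher and 0 lower, against 25.7% of all features. Gpt2, the mitochondrial alanine transaminase, which makes 2-oxoglutarate and alanine from glutamate and pyruvate, stood at 1.23, 1.75 and 1.84 FPKM untreated and at 5.21, 5.31 and 4.79 FPKM with uric acid. This was a clear separation (log2 fold change 1.66 ± 0.17, edgeR adjusted p = 0.001), and it passed with any 1 library left out. Psat1, a transaminase of serine synthesis that also yields 2-oxoglutarate, stood at 34.7, 34.0 and 39.2 against 57.9, 65.1 and 45.6 FPKM. It rose by 0.64 ± 0.12 on the log2 scale (edgeR adjusted p = 0.0174), a call lost on leaving out untreated library 1 (0.0734) or 2 (0.0928) or uric acid library 1 (0.0739). Of the rest, Aldh5a1 and Abat of the GABA shunt had the smallest p, with log2 fold changes of -0.18 and 0.15 (edgeR adjusted p = 0.231 and 0.336).

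Of 15 tested genes for cofactors and assembly, 2 rose and none fell with edgeR, DESeq2 and limma (13.3%). Of all features these called 7.98%, 14.7% and 6.59%. At an unadjusted p under 0.05, 5 of the 15 were higher and 1 lower, against 25.7% of all features. Iba57, which helps build the iron-sulfur clusters that lipoate synthase needs, stood at 2.93, 2.69 and 3.12 FPKM untreated and 5.17, 4.02 and 4.46 FPKM with uric acid (0.64 ± 0.13, edgeR adjusted p = 0.0182). Its call was lost on leaving out untreated library 1 (0.0679) or 2 (0.099) or uric acid library 1 (0.0822). Lias, lipoate synthase, which makes the lipoyl group that Dlst and Dlat carry, stood at 4.4, 4.86 and 5.6 FPKM untreated and 7.59, 8.24 and 6.39 FPKM with uric acid (0.58 ± 0.15, edgeR adjusted p = 0.0488). The Lias call stood close to the threshold and held with 1 library left out only without uric acid library 3 (0.0335). Without untreated libraries 1, 2 and 3 its adjusted p was 0.147, 0.177 and 0.0587, and without uric acid libraries 1 and 2 it was 0.143 and 0.0992. Nfu1, which delivers iron-sulfur clusters, was at 39.0, 34.6 and 35.9 against 46.5, 76.8 and 37.3 FPKM, where uric acid library 2 stood alone (0.55, edgeR adjusted p = 0.16). Without that library the log2 fold change was 0.19 (0.306), and without uric acid library 3 it was 0.76 (0.0358). Lipt2, a lipoyl transferase, had a log2 fold change of 0.39 (0.16).

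Control of pyruvate entry gave no call among 9 tested genes, Pdhx included, with edgeR or limma (1 higher and 2 lower at an unadjusted p under 0.05, the same counts with DESeq2 at an adjusted p under 0.05). Over all features these shares were 25.7% unadjusted and 14.7% with DESeq2. Pdk1, a kinase that switches pyruvate dehydrogenase off, stood at 17.6, 19.7 and 16.9 FPKM untreated and 14.2, 11.1 and 14.4 FPKM with uric acid, lower without overlap (-0.45 ± 0.12, edgeR adjusted p = 0.0512). Pdk2, another such kinase, stood at 3.6, 4.33 and 2.97 against 5.75, 4.78 and 5.67 FPKM, higher without overlap (0.57 ± 0.17, edgeR adjusted p = 0.0794). With DESeq2 these adjusted p were 0.00744 and 0.0338, and Pdk1 also passed without uric acid library 3 (0.0461).

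**Figure D4:**
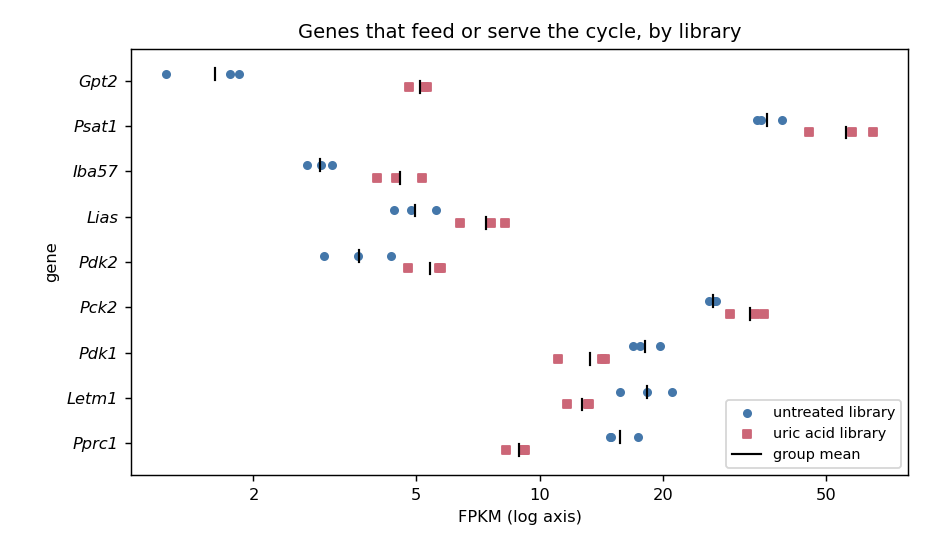
FPKM by library (log x axis; circles untreated, squares uric acid, black lines group means) of the 6 listed genes past the threshold and of Pck2, Pdk1 and Pdk2, which missed it. The groups of all 9 genes are apart, with Gpt2 showing the widest gap, from at most 1.84 FPKM untreated to at least 4.79 FPKM with uric acid.

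The calls that fell were in the lists of calcium handling and of mitochondrial gene control. Each list gave 1 call with edgeR, 11.1% and 10% of its tested genes, against 7.98% of all features. DESeq2 called 1 lower in the first, and 2 higher and 1 lower in the second (14.7% of all features). At an unadjusted p under 0.05, 0 were higher and 2 lower in the first, and 4 higher and 1 lower in the second (25.7% of all features). Letm1, an ion exchanger of the inner membrane, stood at 21.0, 18.3 and 15.7 FPKM untreated and 13.2, 11.6 and 13.1 FPKM with uric acid (-0.54 ± 0.11, edgeR adjusted p = 0.0202), the 1 call among 9 tested. It was lost on leaving out untreated library 1 (0.069) or 2 (0.0871) or uric acid library 1 (0.0731). Pprc1, a coactivator related to PGC-1alpha, stood at 17.4, 15.0 and 14.9 FPKM untreated and 9.21, 8.29 and 9.16 FPKM with uric acid. It fell by 0.82 ± 0.08 on the log2 scale (edgeR adjusted p = 0.000962) and passed with any 1 library left out. Of the other 9 tested regulators, Tfam, which packs and transcribes mitochondrial DNA, and Nrf1 had log2 fold changes of 0.30 and 0.50 (edgeR adjusted p = 0.0521 and 0.0616). Both passed with DESeq2 (0.0149 and 0.00776) and when uric acid library 3 was left out (0.0192 and 0.0203). For Nrf1 the log2 fold change was 0.63 in that fit and 0.32 when uric acid library 2 was left out (0.0813). Mcur1, of the calcium list, was at -0.50 (edgeR adjusted p = 0.157).

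The remaining 3 lists gave no call with edgeR or limma. Among 13 tested malic enzymes, carriers and shuttle enzymes, 0 were higher and 2 lower at an unadjusted p under 0.05 (25.7% of all features), and DESeq2 called 1 lower (14.7% of all features in either direction). Those 2 were Slc25a13, an aspartate-glutamate carrier, and Me2, the mitochondrial malic enzyme, at -0.43 and -0.22 (edgeR adjusted p = 0.0784 and 0.134). Among 8 genes of propionyl-CoA and ketone use, 0 were higher and 1 lower unadjusted, and DESeq2 called 1 lower, both shares below those of all features. Bdh1, a ketone body dehydrogenase, was at -0.29 (edgeR adjusted p = 0.0726; 0.0271 with DESeq2) and Pccb at 0.28 (0.254). Among 8 genes of NAD redox and sirtuins, none reached even an unadjusted p under 0.05, and DESeq2 called none. Nadk2, a mitochondrial NAD kinase, was at 0.31 (edgeR adjusted p = 0.209).

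The pathways on either side of the cycle were read in the same way. Of 40 tested genes with the KEGG entry for glycolysis, 1 rose and 4 fell (12.5%, against 7.98% of all features), with a median log2 fold change of -0.16. DESeq2 called 3 of them higher and 10 lower, and limma 1 and 3, against 14.7% and 6.59% of all features in either direction. At an unadjusted p under 0.05, 3 were higher and 15 lower (45%), against 25.7% of all features. Of 119 tested genes with the entry for oxidative phosphorylation, none passed with edgeR or limma. There, 10 had an unadjusted p under 0.05 (8.4%), against 25.7% of all features, DESeq2 called 3 higher and 2 lower, and the median was -0.01. The cycle shares 5 of its genes with the glycolysis entry and 4 with oxidative phosphorylation. No test of the difference between pathways was made.

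**Figure D5:**
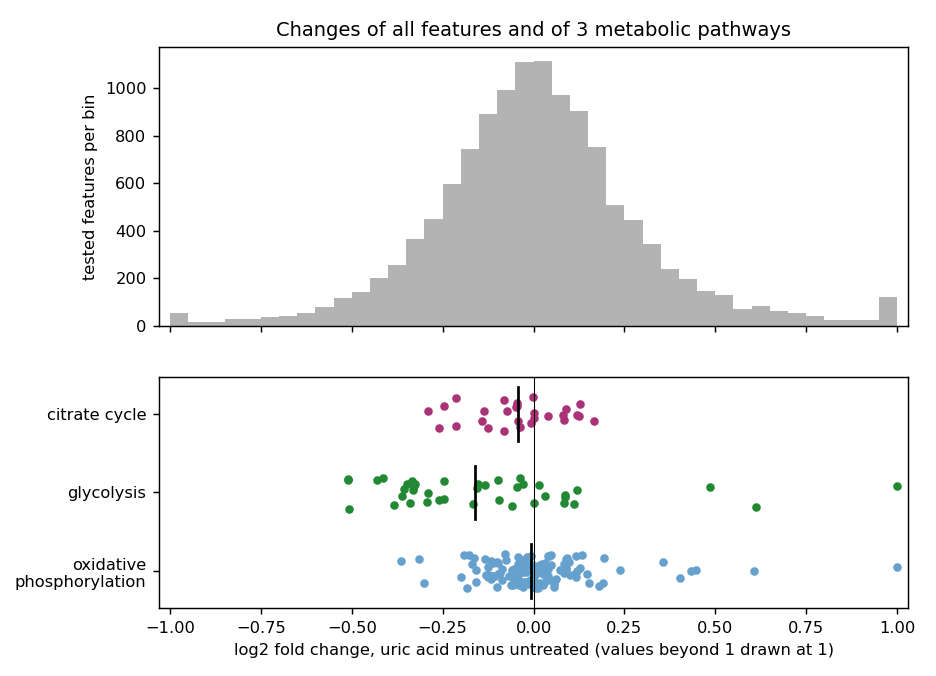
Upper panel, number of tested features in each bin of log2 fold change (x axis, uric acid minus untreated, values beyond 1 drawn at 1). Lower panel, each tested gene of the citrate cycle, glycolysis and oxidative phosphorylation (points, spread vertically for display only) with the pathway's median (black line): -0.04, -0.16 and -0.01. Every citrate cycle gene lies within 0.3 of 0, as do 76.1% of all features.

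Summed estimated counts were between 41191819 and 59092982 per library, and the untreated libraries were on average deeper. Features of the mitochondrial chromosome held 7.87 to 8.24% of counts in the untreated and 8.28 to 9.1% in the uric acid libraries, a shift whose part in these results was not tested. By library, the mean log2 level of the 28 members lay between -0.02 and 0.01 of the mean over untreated libraries within that group, and at -0.02, -0.06 and -0.06 in uric acid libraries 1, 2 and 3. The medians of the same deviations were -0.045, 0.024 and -0.049, so uric acid library 2 was low by the mean and not by the median. Uric acid library 3 lay closest to the untreated group for Lias, Psat1 and Pck2. Leaving it out left 0 members called, higher or lower, as did leaving out any other single library.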

How the data were processed

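The deposited table holds, per the file headers, FPKM and counts for each of the 6 libraries. The deposited FPKM values were scaled by the authors to transcript length and library total, and the deposited count columns were taken as estimated counts from the pattern of their low values and rounded to whole numbers. Per the submitters' processing notes, edgeR, DESeq2, StringTie 1.3.4d, HISAT2 2.0.4 and cutadapt 1.9 were used; the role of each, the genome build and the counting strand are not given in the sources used here. Per the labels' protocols, libraries were made with oligo-dT selection and dUTP marking and read as pairs of 150 bases.

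Features with a mean of at least 1 FPKM (12460; 6829 left out) were tested with edgeR 4.0.16 in R 4.3.3 (quasi-likelihood F test, TMM factors 0.992 to 1.01, no covariate, two-sided, Benjamini-Hochberg over all tested features, threshold 0.05). DESeq2 1.42.0 and limma 3.58.1, on log2(FPKM + 1), were alternatives, with other scalings, filters, the replicate number as a block and each library left out. Standard errors are the log2 fold change divided by the square root of F, and 95% intervals use the moderated degrees of freedom. Ratios of FPKM were compared with exact permutation tests (scipy 1.17.1). The test was checked on simulated counts. Depth and its precision follow from the totals in the results and the spread between libraries.

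Members and lists were chosen with earlier results of these data known. All members enter the fits and counts; 1 member, its ratio and 2 listed genes are not reported here by name or value. Values by library are given for members past the threshold, anaplerotic members and members whose groups do not overlap, and LOC103693780 was added to these after its values were seen. Of each list, every gene past the threshold and up to 2 others with the smallest p are named, with those exceptions. Promoter sequences are from RefSeq, GRCr8. The ratio planned with Ogdh was made with LOC103693780, the table's row for that enzyme. Motifs, and the Idh3g to Idh3a and Pdha1 to Dlat ratios, were chosen after values were seen. Not analysed here were Pck1 and Pdha2.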

Additional observations from a re-analysis of the deposited data

How the results depend on the processing

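No member of the citrate cycle other than Dlst passed the threshold in any of 16 alternative settings, and no direction of a called gene turned. The number of members lower, 1 in the reported fit, was 0 with features above 0 FPKM tested, 0 with the replicate number as a block, and 0 in each fit with 1 library left out (range 0 to 0). The members' median (TCA median log2 fold change) ranged from -0.06 to -0.01 with 1 library left out (-0.062 without untreated library 1, -0.012 without uric acid library 3). The counts of all features higher and all features lower, 622 and 372, became 972 and 793 with DESeq2, and 223 and 99 with the replicate block. With 1 library left out they ranged from 165 to 707 higher and from 66 to 466 lower. In the supply and control lists, 4 higher and 2 lower became 7 and 6 with DESeq2 and 1 and 1 with the block, and ranged from 1 to 8 higher and from 1 to 3 lower with 1 library left out. Same-numbered libraries did not deviate together (correlations 0.0684, -0.0492 and -0.19), so the numbers were not taken as pairs. Whether the fewer calls under the block reflect a weaker effect was not tested. Beside the fits with 1 library left out, Lias was lost with upper quartile scaling (adjusted p = 0.0533), with features above 0 FPKM tested (0.0666) and with the block (0.126). The members' lowest count in any library was 1004. What limits the number of calls was not tested, nor was the cause of these changes.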
